A study of Mus musculus with 6 samples.

Results

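The genes described here are those by which a tissue makes, carries and removes retinoic acid: the retinaldehyde dehydrogenases Aldh1a1, Aldh1a2 and Aldh1a3, the retinol and retinaldehyde enzymes Rdh10 and Dhrs3, the binding proteins Crabp1 and Crabp2, and the clearing enzymes Cyp26a1 and Cyp26b1. They were taken by gene symbol, 9 of the 51802 symbols listed, and the values of all transcripts under a symbol were summed. All 9 had enough reads to be tested. RNA was sequenced from whole cochleae, the hearing organ of the inner ear, of C57/BL6J mice aged 2 months. There were 3 wildtype samples, numbered 3, 4 and 5, and 3 samples from littermates of genotype Pou4f3(Δ/+), numbered 1, 2 and 3. The latter carried 1 copy of Pou4f3Δ, an allele made to match a human deafness mutation, and kept a normal copy of Pou4f3, a transcription factor that within the cochlea is a hair cell factor. No sample was given any agent. No source used here says whether a sample was 1 cochlea or a pool, so the p-values measure the spread between these samples only.

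Retinoic acid is made from vitamin A (retinol) in successive oxidations. RDH10 oxidises retinol to retinaldehyde, DHRS3 reduces retinaldehyde back to retinol, and the retinaldehyde dehydrogenases oxidise it further to retinoic acid, a step that cannot be reversed. CRABP proteins hold retinoic acid inside the cell, CYP26 enzymes degrade it, and the RAR and RXR receptors, bound to DNA as pairs, switch on genes in its presence. The signal is needed to form the inner ear, and in the study behind these data the dehydrogenases were the target of an inhibitor. The comparison here places a difference in Aldh1a1, already known from these data, among the genes of its pathway.

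Of the genes for which the RefSeq table of start sites gave a window (6 of the 9 genes), Cyp26a1 was the member with a retinoic acid response element of the spacing-5 type within the 250 bases before its start. The motif was a direct repeat of a hexamer with 5 bases between the copies, sought on both strands, where a copy could be AGGTCA or the variant AGTTCA or the variant GGGTCA or the variant GGTTCA. It was in 29 of 32851 start-site windows in RefSeq (0.0883%), and among the receptors Rarb had it as well. These genes are known to be driven by retinoic acid, and their sequences are shown because their levels are given below. The windows are in GRCm38.p6, and each runs 5′ to 3′ on the gene's strand up to the base before the RefSeq start, with the motif in capitals. The Cyp26a1 window is chr19:37697558-37697807 on the plus strand, and the motif is read there on the opposite strand. The Rarb window is chr14:16575477-16575601 on the minus strand.
Cyp26a1: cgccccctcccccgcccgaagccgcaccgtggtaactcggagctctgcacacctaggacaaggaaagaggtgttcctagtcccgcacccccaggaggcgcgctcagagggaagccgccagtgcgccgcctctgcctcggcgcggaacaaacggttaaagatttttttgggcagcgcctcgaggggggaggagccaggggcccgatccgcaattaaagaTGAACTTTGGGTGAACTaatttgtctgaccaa
Rarb: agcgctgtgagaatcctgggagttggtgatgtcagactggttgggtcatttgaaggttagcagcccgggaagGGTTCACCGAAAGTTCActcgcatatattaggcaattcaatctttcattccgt

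The octamer ATGCAAAT, a sequence that POU-family factors as a group are known to bind, was in 526 of the 32851 windows (1.6%), both strands searched. Among the members it was before Aldh1a1 and Aldh1a2, and it was at the same distance before Aldh1a7, the close relative of Aldh1a1 on the same chromosome. These are shown, with the octamer in capitals, because the fold changes of these members, given below, have opposite signs and because Aldh1a7 could share reads with Aldh1a1. The octamer lies 56 to 49 bases before the starts of Aldh1a1 and Aldh1a7, and 84 to 77 bases before that of Aldh1a2. Of the other pathway genes, Aldh8a1, which had too few reads to test, had it at 58 to 51 bases. RefSeq gives 2 starts for Aldh1a1, and the octamer is before the one at 20601968, 7 bases from the start of the transcript that the files list, and not in the window of the other at 20492583. The windows are chr19:20601843-20601967 on the plus strand for Aldh1a1, chr19:20727557-20727681 on the minus strand for Aldh1a7 and chr9:71215664-71215788 on the plus strand for Aldh1a2. Another motif, ATAATTAAT, was in 85 windows (0.259%) and in no window of a member or of another pathway gene. Whether Pou4f3 binds any of these sequences was not tested.
Aldh1a1: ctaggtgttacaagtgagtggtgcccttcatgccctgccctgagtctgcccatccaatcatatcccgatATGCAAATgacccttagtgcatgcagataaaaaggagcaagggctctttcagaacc
Aldh1a7: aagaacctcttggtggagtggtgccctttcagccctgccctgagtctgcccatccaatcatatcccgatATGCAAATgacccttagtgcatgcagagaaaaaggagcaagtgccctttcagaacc
Aldh1a2: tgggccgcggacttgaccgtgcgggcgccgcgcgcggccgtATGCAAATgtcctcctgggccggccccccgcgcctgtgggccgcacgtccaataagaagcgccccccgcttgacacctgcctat

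Levels were compared per length, as FPKM (reads scaled to transcript length and to the depth of the sample). In wildtype cochleae the order by mean was Dhrs3, Aldh1a1, Aldh1a3, Aldh1a2, Crabp2, Rdh10, Crabp1, Cyp26b1 and Cyp26a1, from 52.1 FPKM for Dhrs3 to 0.633 for Cyp26a1. The ranges over samples overlapped between Aldh1a1 and Aldh1a3, between Aldh1a2 and Crabp2, between Crabp1 and Cyp26b1, and between Cyp26b1 and Cyp26a1, and other neighbours in the order were apart. In Pou4f3(Δ/+) cochleae the order was the same except that Cyp26b1 stood above Crabp1. There the ranges of Aldh1a1 and Aldh1a3 were apart, and those of Dhrs3 and Aldh1a1 overlapped. In both genotypes Dhrs3, Aldh1a1 and Aldh1a3 had the highest means, and Cyp26a1 the lowest.

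**Figure D1:**
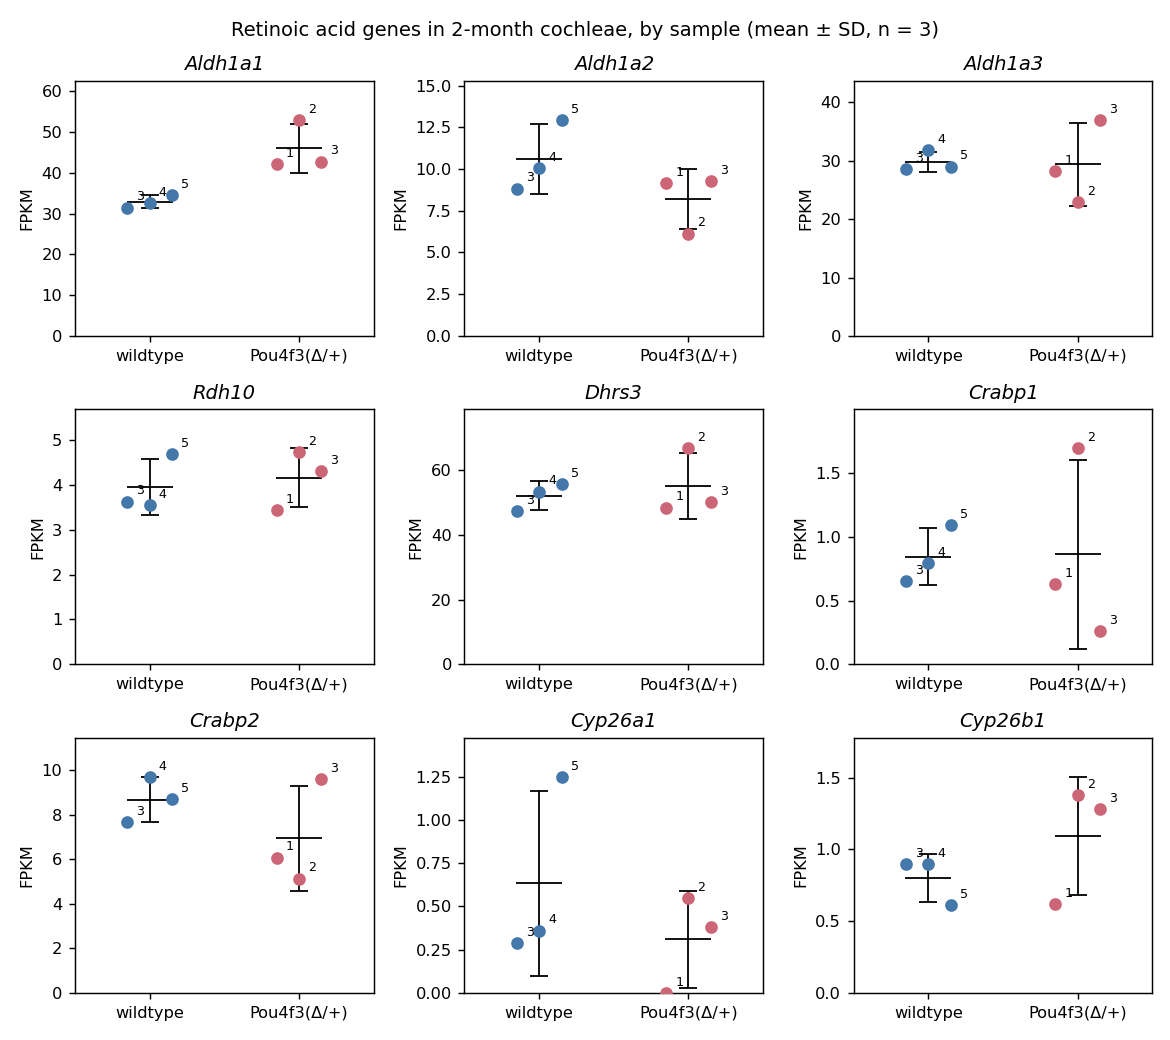
FPKM (vertical axes, linear and from 0) of the 9 genes in the 3 wildtype (blue) and 3 Pou4f3(Δ/+) (red) samples, each point a sample with its number, lines and bars the mean ± SD. Aldh1a1 is the gene whose groups are apart, 31.46 to 34.60 in wildtype against 42.19 to 52.94, while the other 8 overlap.

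Aldh1a1 was the member that stood apart. It encodes a retinaldehyde dehydrogenase and lies on chromosome 19 at 20492715 to 20643465, plus strand (GRCm38, GENCODE M21; ENSMUSG00000053279). Its FPKM was 31.46, 32.64 and 34.60 in wildtype samples 3, 4 and 5, and 42.19, 52.94 and 42.72 in Pou4f3(Δ/+) samples 1, 2 and 3, so every Pou4f3(Δ/+) sample was above every wildtype sample. The counts behind these values were 1115, 958 and 1220 in wildtype and 1533, 1684 and 1286 in Pou4f3(Δ/+). The means were 32.9 ± 1.59 and 45.95 ± 6.06 FPKM (SD, n = 3 each), and the fitted fold was 1.40 (95% interval 1.19 to 1.64), or 0.48 on the log2 scale with a standard error of 0.11. The unadjusted p of 0.00101 from edgeR's quasi-likelihood test ranked 25 of 17136 genes. It did not pass the Benjamini-Hochberg adjustment over all genes (edgeR adjusted p = 0.632), and no gene did, with a smallest adjusted p of 0.0784. DESeq2 on the same counts gave Aldh1a1 an adjusted p of 0.0337, among the 64 genes that passed there (0.373% of those tested). With no filter on low counts, edgeR gave an adjusted p of 0.0386, where 18 of 27491 genes passed. Without Pou4f3(Δ/+) sample 3, edgeR gave 0.0370, where 283 of 17513 genes passed. In whole-cochlea RNA, more cells of a type and more RNA in each cell cannot be told apart.

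At an unadjusted p under 0.05, 1 of the 9 members was higher and none was lower, beside 3.38% and 3.87% of all genes tested (7.25% in all, 1243 genes). Groups that did not overlap in CPM (counts scaled to depth alone) were seen in the same 1 of 9, beside 12.7% of all genes (6.07% higher and 6.59% lower). Of the 9, 4 had log2 fold changes below 0 and 5 above, against 50.6% of all genes below 0, and their median was 0.03 against -0.0027 over all genes. With 9 members, 1 gene sets these shares, and it is Aldh1a1, whose difference was known when the members were chosen. With all 6 samples and the filter on low counts, none of the other 8 had an unadjusted p under 0.05, and their edgeR adjusted p-values ran up to 0.989. With no filter, edgeR gave Aldh1a2 an unadjusted p of 0.0377 (adjusted p = 0.796). Leaving out single samples brought the unadjusted edgeR p under 0.05 in some runs for Aldh1a2, Aldh1a3, Crabp2 and Cyp26b1. None of these had an adjusted p under 0.05.

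**Figure D2:**
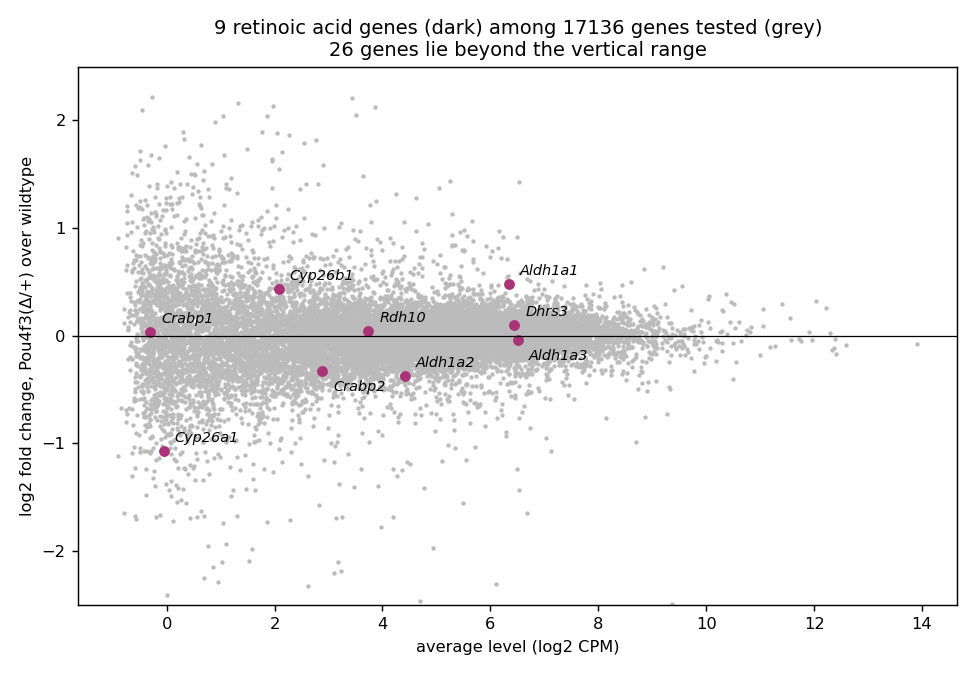
Log2 fold change, Pou4f3(Δ/+) over wildtype (vertical axis), against the average level in log2 CPM (horizontal axis) for 17136 genes, each point a gene, with the 9 retinoic acid genes dark and 26 genes beyond the vertical range. Aldh1a1 at 0.48 lies above most genes of like level, and Cyp26a1 at -1.07 lies among the widely scattered genes of few counts.

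Aldh1a2, the dehydrogenase that makes most retinoic acid in the embryo, had lower values than Aldh1a1 and its difference pointed the other way. It lies on chromosome 9 at 71215789 to 71296243, plus strand. Its FPKM was 8.83, 10.07 and 12.94 in wildtype and 9.16, 6.13 and 9.28 in Pou4f3(Δ/+). The groups overlapped, with Pou4f3(Δ/+) sample 2 the lowest and wildtype sample 5 the highest. The log2 fold change was -0.38 (standard error 0.19, 95% interval -0.80 to 0.04), with an edgeR adjusted p of 0.677, and it was -0.20 without wildtype sample 5 and -0.22 without Pou4f3(Δ/+) sample 2. Of the 13 marker lists, those of stria vascularis (-0.33), smooth muscle and pericytes (-0.32), fibroblasts (-0.31) and spiral ligament fibrocytes (-0.26) had the most negative differences in mean log2 CPM, Pou4f3(Δ/+) less wildtype, each with groups that overlapped. The summed CPM of the fibroblast list, 6 of 6 tested, ran over 1129 to 1616 for wildtype and 914 to 1208 for the others. The part of these lists in the Aldh1a2 values was not tested.

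Aldh1a3 lies on chromosome 7 at 66390890 to 66427517, minus strand, and was about as abundant as Aldh1a1 in wildtype. Its FPKM was 28.58, 31.81 and 28.96 in wildtype and 28.24, 22.95 and 36.95 in Pou4f3(Δ/+). The Pou4f3(Δ/+) samples lay on either side of the wildtype ones. The log2 fold change was -0.04 (95% interval -0.39 to 0.30, edgeR adjusted p = 0.957).

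Summed over the 3 dehydrogenases, FPKM was 68.87, 74.52 and 76.5 in wildtype and 79.59, 82.02 and 88.95 in Pou4f3(Δ/+). Aldh1a1 made up 45.7%, 43.8% and 45.2% of that sum in wildtype and 53.0%, 64.5% and 48.0% in Pou4f3(Δ/+). The ratio of Aldh1a1 to Aldh1a2 was 3.56, 3.24 and 2.67 in wildtype and 4.61, 8.64 and 4.60 in Pou4f3(Δ/+). In the sum, the Aldh1a1 share and this ratio, all Pou4f3(Δ/+) samples were above all wildtype samples. They contain the Aldh1a1 values already given and were chosen with those known, so no test is attached, and 3 samples against 3 could not give an exact two-sided permutation p below 0.1.

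**Figure D3:**
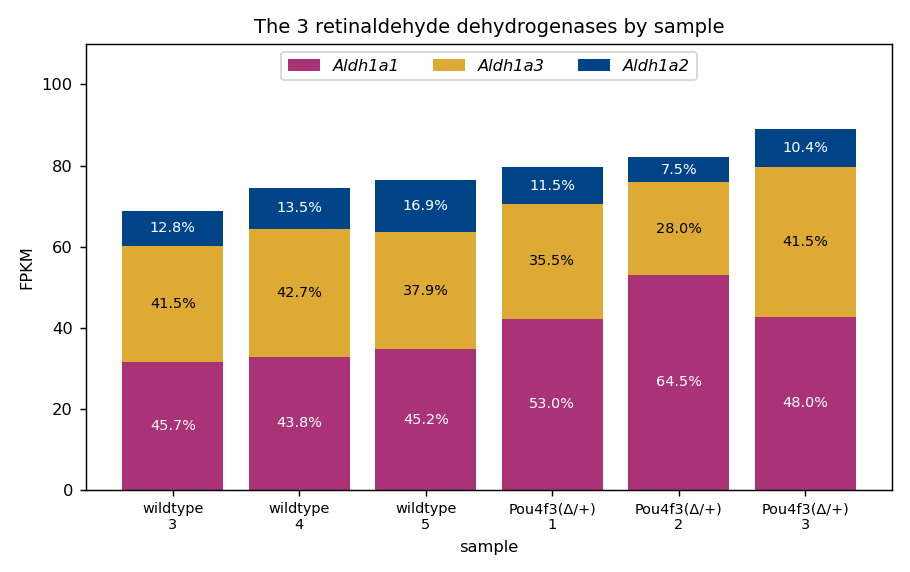
FPKM (vertical axis, from 0) of Aldh1a1, Aldh1a3 and Aldh1a2 stacked for each of the 6 samples (horizontal axis), with each gene's percent of the sum printed in its block. Aldh1a1 holds 43.8% to 45.7% of the sum in wildtype and 48.0% to 64.5% in Pou4f3(Δ/+).

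Aldh1a7 shares 1836 of 2050 aligned transcript bases with Aldh1a1 (89.6%), but none of the 1904 stretches of 150 bases of the Aldh1a1 transcript is found in it without a mismatch. Its counts were 82, 114 and 23 in wildtype and 116, 104 and 96 in Pou4f3(Δ/+), with wildtype sample 5 the lowest. How the authors' counting divided reads between these genes is not given in the sources used here, so the values of each are uncertain to that degree. With the counts of both summed, the log2 fold change was 0.48 (edgeR adjusted p = 0.631), as for Aldh1a1 alone.

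Rdh10, which makes the retinaldehyde that the dehydrogenases use, lies on chromosome 1 at 16105774 to 16133734, plus strand. Its FPKM was 3.62, 3.55 and 4.67 in wildtype and 3.44, 4.72 and 4.30 in Pou4f3(Δ/+). The groups overlapped throughout, with a log2 fold change of 0.04 (95% interval -0.35 to 0.43, edgeR adjusted p = 0.964).

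Dhrs3, whose product works against Rdh10, lies on chromosome 4 at 144892827 to 144928209, plus strand, and had the highest FPKM of the 9. Its FPKM was 47.19, 53.32 and 55.66 in wildtype and 48.39, 66.64 and 50.15 in Pou4f3(Δ/+). Only Pou4f3(Δ/+) sample 2 was above the wildtype range, and the log2 fold change of 0.10 (95% interval -0.22 to 0.42, edgeR adjusted p = 0.866) became -0.08 without that sample.

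Crabp2, which delivers retinoic acid to receptors in the nucleus, lies on chromosome 3 at 87948666 to 87953376, plus strand. Its FPKM was 7.65, 9.69 and 8.69 in wildtype and 6.07, 5.13 and 9.60 in Pou4f3(Δ/+). Pou4f3(Δ/+) samples 1 and 2 were below all wildtype samples and sample 3 was not. The log2 fold change was -0.33 (95% interval -0.85 to 0.19, edgeR adjusted p = 0.744), and it was -0.61 without sample 3, -0.16 without sample 2 and 0.13 with samples 1 and 2 left out.

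Crabp1, the other cellular retinoic acid binding protein, lies on chromosome 9 at 54764748 to 54773110, plus strand, and had few reads. Its counts were 9, 9 and 15 in wildtype and 9, 21 and 3 in Pou4f3(Δ/+), or 0.65, 0.79 and 1.09 and 0.63, 1.69 and 0.26 FPKM. The highest and the lowest sample were both Pou4f3(Δ/+). The log2 fold change was 0.03 with a 95% interval from -1.34 to 1.41 (edgeR adjusted p = 0.989).

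Cyp26a1 lies on chromosome 19 at 37697798 to 37701536, plus strand, and is the clearing enzyme with the response element shown above. Its counts were 9, 9 and 38 in wildtype and 0, 15 and 10 in Pou4f3(Δ/+), or 0.29, 0.36 and 1.25 and 0, 0.55 and 0.38 FPKM. The 0 in Pou4f3(Δ/+) sample 1 allows up to 3 counts, or 0.0947 FPKM, by counting error alone. Wildtype sample 5 held most of the wildtype reads, and the groups overlapped. The log2 fold change was -1.07 (95% interval -3.31 to 1.17, edgeR adjusted p = 0.796). It was -0.09 without wildtype sample 5, -0.45 without Pou4f3(Δ/+) sample 1 and -1.81 without Pou4f3(Δ/+) sample 2.

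Cyp26b1, the other clearing enzyme, lies on chromosome 6 at 84571414 to 84593908, minus strand. Its counts were 68, 56 and 46 in wildtype and 48, 93 and 81 in Pou4f3(Δ/+), or 0.90, 0.90 and 0.61 and 0.62, 1.38 and 1.28 FPKM. Pou4f3(Δ/+) samples 2 and 3 were above the wildtype range and sample 1 was within it. The log2 fold change was 0.43 (95% interval -0.28 to 1.14, edgeR adjusted p = 0.753), a point estimate close to that of Aldh1a1 with an interval that includes 0. It was 0.21 without Pou4f3(Δ/+) sample 2 and 0.72 without sample 1.

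**Figure D4:**
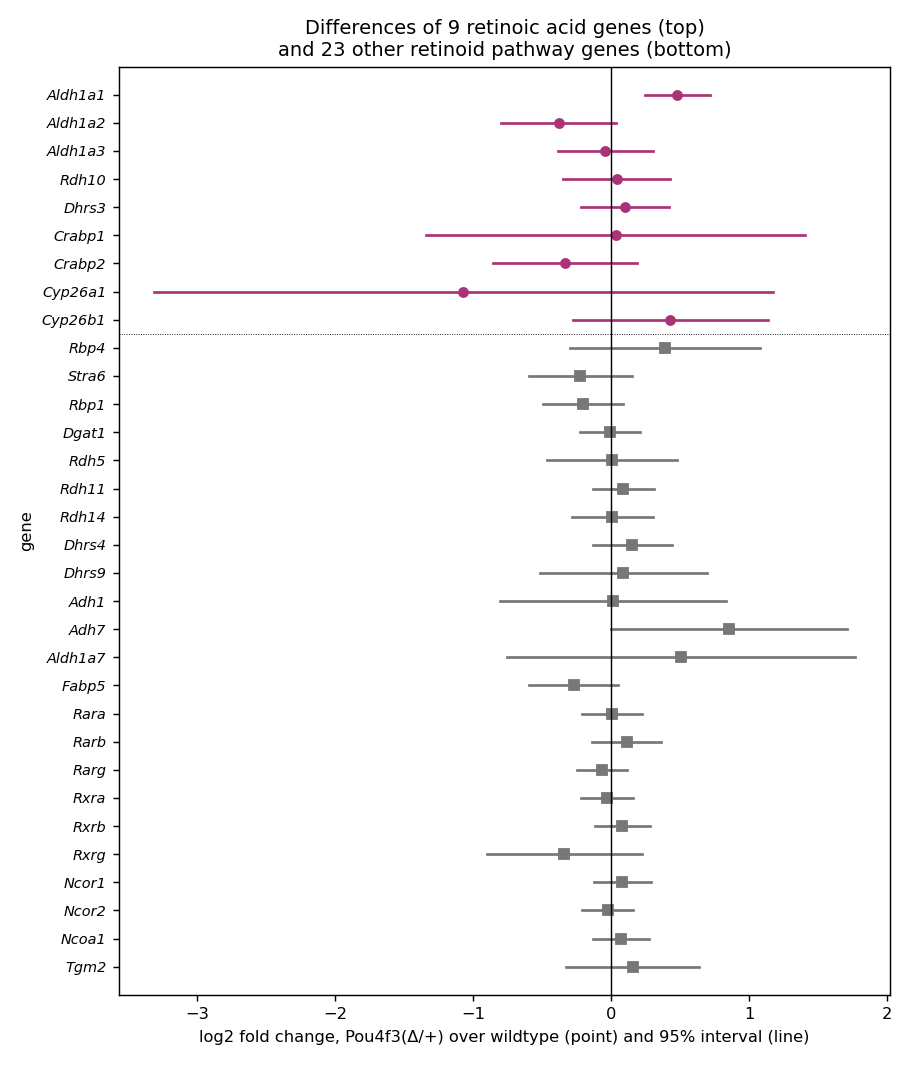
Log2 fold change, Pou4f3(Δ/+) over wildtype (points, horizontal axis), with its 95% interval (lines) for the 9 genes above the dotted line and 23 other retinoid pathway genes below it. The interval of Aldh1a1, 0.25 to 0.72, is the one that leaves out 0, and those of Crabp1 and Cyp26a1 are the widest.

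Aldh1a1, Aldh1a2, Crabp1 and Cyp26a1 each had 1 transcript listed, so their gene and transcript levels are the same. Of 25 member transcripts listed, 16 had enough reads to test. For Aldh1a3, the 13-exon transcript ENSMUST00000015278 made up 83.0% of the summed level in wildtype samples and 80.7% in Pou4f3(Δ/+) samples, and the 7-exon ENSMUST00000174209 held 16.3% and 19.3%. For Rdh10, the coding ENSMUST00000027053 held 81.7% and 77.8%, and the retained-intron ENSMUST00000152626 the rest. Dhrs3 was divided over ENSMUST00000171001 (56.8% and 54.9%), ENSMUST00000154208 (23.2% and 25.1%) and ENSMUST00000084184, a nonsense-mediated decay form (14.7% and 14.6%). For Cyp26b1, ENSMUST00000205228 held 58.5% and 67.4% and ENSMUST00000204146 held 41.5% and 26.5%. By sample, ENSMUST00000204146 held 43.3%, 34.4% and 49.2% in wildtype and 48.4%, 27.5% and 14.8% in Pou4f3(Δ/+). These shares overlapped and rested on 12.5 to 30.5 counts a sample. Crabp2 was read as ENSMUST00000005019 alone. In the fit over 38347 transcripts, none of the 16 passed the adjusted threshold (0 of all transcripts did). The transcript of Aldh1a1 was the 1 member with an unadjusted p under 0.05, where 4.05% of all transcripts had one, and the 1 whose groups did not overlap, where 10.7% did not. DESeq2 passed none of the 16 and 0.339% of all transcripts.

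Of 30 other genes of retinoid uptake, storage, oxidation and response, 23 had enough reads to test and 7 did not, among them Lrat, which stores retinol as its ester, and Cyp26c1, a clearing enzyme. None passed the adjusted threshold in edgeR or DESeq2, and none had an unadjusted p under 0.05. Their log2 fold changes had a median of 0.0158, with 8 below 0 and 15 above. In CPM, the groups did not overlap for 3 of the 23 (13%), beside 12.7% of all genes: Adh7, an alcohol dehydrogenase that can oxidise retinol, was higher, and Fabp5, a lipid carrier reported to bind retinoic acid, and Rxrg, a retinoid X receptor, were lower. Adh7 rested on 18, 13 and 15 counts in wildtype and 29, 37 and 16 in Pou4f3(Δ/+). Its log2 fold change was 0.85 (standard error 0.38, edgeR adjusted p = 0.675). Fabp5 had 365, 253 and 312 counts in wildtype and 307, 199 and 252 in Pou4f3(Δ/+), with a log2 fold change of -0.27 (edgeR adjusted p = 0.680). For Rxrg the log2 fold change was -0.34 (edgeR adjusted p = 0.755).

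No receptor passed the test. Beside Rxrg, whose value is given above, the log2 fold changes were 0.01 for Rara, 0.11 for Rarb, -0.07 for Rarg, -0.03 for Rxra and 0.08 for Rxrb, each with a standard error of at most 0.112. Rarb, with the response element shown above, had a mean of 5.64 FPKM in wildtype and 6.10 in Pou4f3(Δ/+) (edgeR adjusted p = 0.814).

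The genes closest to Aldh1a1 in pattern over the 6 samples, among 11955 genes with a mean log2 CPM of at least 3, were Ncbp3 (Pearson r = 0.998, Spearman rho = 0.943), Hn1 (0.989, 0.886), Zfp36l2 (0.987, 0.886), 4933439C10Rik (0.984, 0.943) and Rpl3-ps1 (0.984, 0.943). The points share their libraries, so these are descriptions, and Rpl3-ps1, a pseudogene, is uncertain. Without the 2 samples farthest from the median of Aldh1a1 (Pou4f3(Δ/+) 2 and wildtype 3), r was 0.998, 0.987, 0.962, 0.954 and 0.991. Over all 6 samples the other members had r from -0.72 for Crabp2 and Aldh1a2 to 0.64 for Dhrs3, and without those 2 samples r was -0.54 for Crabp2, -0.60 for Aldh1a2 and -0.89 for Dhrs3. The sign also turned for Aldh1a3 (-0.49 to 0.11), Rdh10 (0.45 to -0.13) and Crabp1 (0.27 to -0.70), so for these and Dhrs3 it rests on those samples.

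Depth was 14295069 to 17696784 summed counts per sample. On the first principal component of log2 CPM, which held 32.5% of the variance, Pou4f3(Δ/+) samples 1 and 2 stood apart at 23.2 and 40.2, while the third was at -16.4 beside the wildtype samples at -11.7 to -21.5. Without both of them, Aldh1a1 still had a log2 fold change of 0.36, and its edgeR adjusted p was 1.00. B cell markers, all 9 of 9 on the list tested, had a mean log2 CPM of 3.96, 4.21 and 3.58 in wildtype and 5.11, 5.28 and 4.36 in Pou4f3(Δ/+), and a summed CPM of 235 to 286 and 295 to 593. It was the 1 list of 13 whose groups did not overlap, and like Aldh1a1 it was higher in Pou4f3(Δ/+). Pou4f3(Δ/+) sample 2 was the highest in both. Wildtype sample 5 had the lowest B cell mean but the highest Aldh1a1 level among wildtype samples. The part of the B cell list in the Aldh1a1 difference was not tested. Hair cell markers had a mean log2 CPM of 2.84 to 2.93 in wildtype samples and 2.77 to 3.09 in the others, with 9 of 10 tested and Cabp2 at 0. The mitochondrial share of counts ranged over 4.30% to 4.54% for wildtype and over 3.84% to 4.26% for the others.

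**Figure D5:**
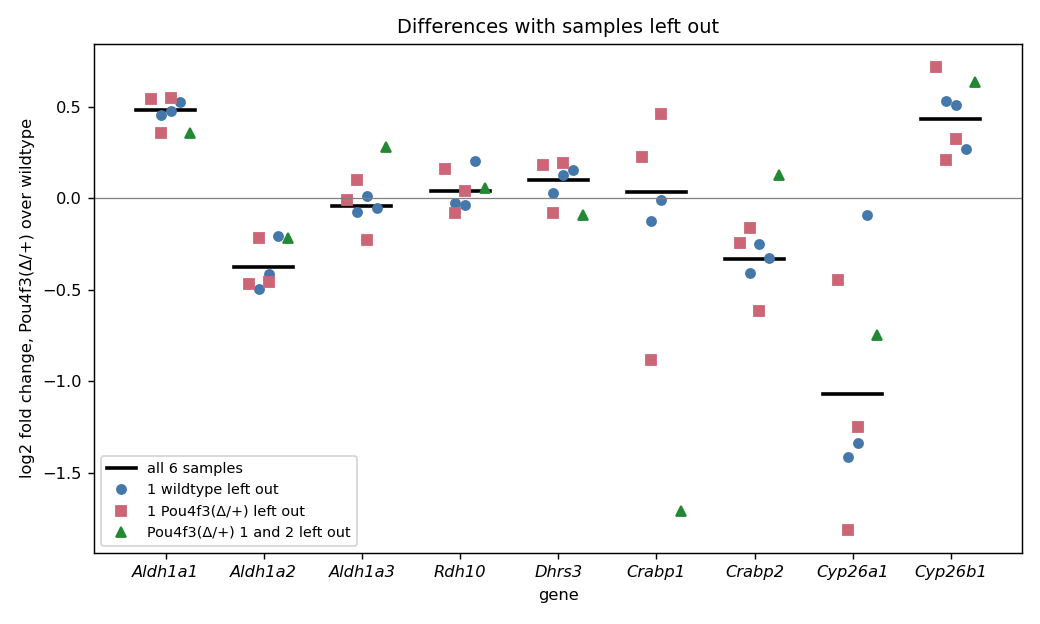
Log2 fold change, Pou4f3(Δ/+) over wildtype (vertical axis), of each of the 9 genes (horizontal axis) with all 6 samples (black lines) and with samples left out (symbols); Crabp1 had too few reads to test without wildtype 5. Aldh1a1 stays between 0.36 and 0.55 whichever sample is left out, while Aldh1a3, Rdh10, Dhrs3, Crabp1 and Crabp2 have symbols on both sides of 0.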

How the data were processed

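Per the labels, total RNA of whole cochleae was made into libraries after poly(A) isolation or rRNA removal (which was used is not given) and, per the study's methods, sequenced as pairs of 150-base reads. The authors deposited, per transcript, expected counts (estimates, 82.2% of those above 0 not whole) and FPKM, with a transcript length. The submitters' processing notes list DESeq2 and mm8. The aligner, counter and annotation are not given in the sources used here, and 99.5% of the transcripts are in GENCODE M21 on GRCm38, whose positions are printed.

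Counts were summed over the transcripts of a symbol, rounded, filtered with filterByExpr (minimum count 10, minimum total 15), TMM-normalized and tested with edgeR 4.0.16 (R 4.3.3; glmQLFit with robust estimation) on the 6 samples with genotype as the only term, and p-values were adjusted by Benjamini-Hochberg over all 17136 genes or 38347 transcripts. The standard error is the absolute log2 fold change over the square root of F. Named genes were all 9 members, transcripts with at least 10% of a member's FPKM, pathway genes with unadjusted p under 0.05 or groups apart, Aldh1a7, the receptors, and the 5 genes most correlated with Aldh1a1. Alternatives were DESeq2 1.42.0, its size factors in edgeR, no filter, limma-trend (3.58.1) on log2(FPKM + 0.5, 0.1 or 1), samples left out, Aldh1a7 added to Aldh1a1, and, chosen after seeing the data, no robust estimation. Members and lists were chosen with earlier results of these data known. Where a count of 0 is read as up to 3 counts, that allows for counting error alone. Scripts were tested on simulated data.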

Additional observations from a re-analysis of the deposited data

How the results depend on the processing

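The direction of Aldh1a1 held in 15 of 15 alternatives (0.36 to 0.55 log2). Its adjusted p passed 0.05 under DESeq2 (0.0337), no filter (0.0386) and without Pou4f3(Δ/+) 3 (0.0370), giving 1 member called in each and 0 otherwise (0 to 1 with each sample left out). Genes called were 0 in the edgeR analysis of all 6 samples, 64 with DESeq2, 18 with no filter, 1 with limma on log2(FPKM + 0.1), 0 to 283 with each sample left out (283 without Pou4f3(Δ/+) 3, 3 without wildtype 4), and 14 without Pou4f3(Δ/+) 1 and 2 together, where the lone sample is assumed to vary like the wildtype group. Transcripts called were 0, and 130 with DESeq2, 2 with no filter, 2 with limma on log2(FPKM + 0.1), and 0 to 3 with each sample left out. No member transcript or other pathway gene passed under any alternative run.

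Signs turned for Aldh1a3 to 0.01 without wildtype 4, 0.10 without Pou4f3(Δ/+) 2 and 0.28 without Pou4f3(Δ/+) 1 and 2; for Rdh10 to -0.03 without wildtype 3, -0.04 without wildtype 4 and -0.078 without Pou4f3(Δ/+) 2; for Dhrs3 to -0.082 without Pou4f3(Δ/+) 2 and -0.091 without 1 and 2; for Crabp2 to 0.13 without 1 and 2. Crabp1 turned to -0.11, -0.25 and -0.053 with limma at pseudocounts 0.5, 0.1 and 1, -0.12 without wildtype 3, -0.01 without wildtype 4, -0.89 without Pou4f3(Δ/+) 2 and -1.71 without 1 and 2. Over the 6 analyses that omit 1 sample, the ranges were -0.23 to 0.10 for Aldh1a3, -0.078 to 0.20 for Rdh10, -0.082 to 0.19 for Dhrs3, -0.61 to -0.16 for Crabp2 and -1.81 to -0.09 for Cyp26a1. For Crabp1, which had too few reads to test without wildtype 5, the other omissions gave -0.89 to 0.46. The cause was not tested. Each scaling moved the median of all genes by less than 0.1 on the log2 scale. No paired analysis was possible because the sources used here do not say which samples share a litter, nor that replicate numbers mark pairs. Crabp1 and Cyp26a1 rest on at most 38 counts a sample, and how far depth or the spread between samples sets their errors was not tested.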
